A study of Homo sapiens with 14 samples.

Results

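The response of CWR22Rv1 cells to blocked fucosylation was set directly against their response to blocked sialylation, in the 3 libraries treated with SGN-2FF and the 3 treated with P-SiaFNEtoc of the 14 libraries in the series. CWR22Rv1 is a human prostate cancer cell line with luminal character. The cells had been kept for 72 h in 100 μM SGN-2FF, in 2 μM P-SiaFNEtoc or in DMSO, the vehicle, which also has 3 libraries. The concentrations of the inhibitors differ, so each value below describes these compounds at these doses and not equal doses. All groups are 1 cell line with no change of genotype, and the methods of the study describe the 3 libraries of a group as biological repeats without saying how the cultures were separated, so p-values measure the spread between these libraries. The genes were those listed in both count tables, which gave 27845 genes of the 28395 in the SGN-2FF table, and 14263 of them had enough counts to be tested. DMSO libraries took no part in the contrast and show only where the vehicle level lay. The SGN-2FF libraries were numbered in the series apart from those of DMSO and P-SiaFNEtoc. The sources used here do not say whether the 3 groups were cultured and sequenced together, and a difference of run was not tested.

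Fucose and sialic acid are both found on the glycans of secreted and cell surface proteins, sialic acid at the outer ends and fucose at the core or the ends. Fucose is transferred from GDP-fucose, which cells make from GDP-mannose through GMDS and GFUS or salvage from free fucose through FCSK and FPGT, and fucosyltransferases place it on the core of N-glycans (FUT8), on their antennae or directly on proteins such as the Notch receptors (POFUT1). Sialic acid is made by GNE, NANS and NANP, activated by CMAS, carried into the Golgi by SLC35A1 and placed on galactose or N-acetylgalactosamine by the ST3GAL, ST6GAL and ST6GALNAC enzymes. SGN-2FF, or 2-fluorofucose, is taken up by the salvage pathway and becomes a false GDP-fucose that occupies fucosyltransferases and holds back the synthesis of GDP-fucose. P-SiaFNEtoc is a protected 3-fluoro sialic acid with a carbamate at carbon 5 that acts in the same way on sialyltransferases. Neither compound acts on messenger RNA directly, and the counts below measure messenger RNA and not glycans.

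The libraries held 12943622 to 16569690 counts on genes with SGN-2FF, 15424545 to 19981453 with P-SiaFNEtoc and 15398882 to 17689808 with DMSO. Levels are given as CPM, counts scaled to a common library size, so they compare 1 gene between libraries and not genes with each other. The luminal markers were present in every library, with a summed level of 3317 to 3453 CPM with SGN-2FF, 3107 to 3171 with P-SiaFNEtoc and 2704 to 2798 with DMSO. Basal, stromal, and immune and endothelial markers summed to at most 3.709, 25.87 and 9.201 CPM, and CD3E and MS4A1 were at 0 in all 9 libraries. The neuroendocrine markers summed to 376.9 to 423.1 CPM over the 9 libraries. In the first principal components of the 9 libraries, which held 37.3% and 24.9% of the variance, the SGN-2FF libraries lay between 6.54 and 10.6 on the first and between -9.87 and -3.56 on the second, and the P-SiaFNEtoc libraries between 1.33 and 4.24 and between 7.96 and 10.7, so no library stood among those of the other inhibitor. Mitochondrial transcripts took 8.27% to 8.68% of the counts with SGN-2FF against 6.11% to 6.83% with P-SiaFNEtoc, which bears on the values of mitochondrial genes below.

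By the quasi-likelihood test of edgeR, with p-values adjusted by the method of Benjamini and Hochberg, 1862 of the 14263 genes tested, or 13.1%, differed between the inhibitors at an adjusted p-value under 0.05. Of these, 906 genes (6.35% of those tested) were higher with SGN-2FF and 956 (6.7%) were higher with P-SiaFNEtoc. Most differences were small, with a median size of 0.24 on the log2 scale among the called genes against 0.10 over all genes tested. A log2 difference beyond 0.58 was reached by 174 of the called genes, 100 of them higher with SGN-2FF and 74 higher with P-SiaFNEtoc, and 45 genes differed by more than 1. The levels of the 3 libraries did not overlap between the inhibitors for 1758 of the called genes, and for 4112 (28.8%) of all genes tested. Set against DMSO on the same genes, SGN-2FF had 1483 genes higher (10.4%) and 1600 lower (11.2%), and P-SiaFNEtoc had 1257 higher (8.81%) and 1161 lower (8.14%). These last counts share the DMSO libraries and are given only to place the sizes of the responses. All log2 fold changes below are SGN-2FF minus P-SiaFNEtoc unless DMSO is named, and their adjusted p-values come from the same edgeR test.

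**Figure D1:**
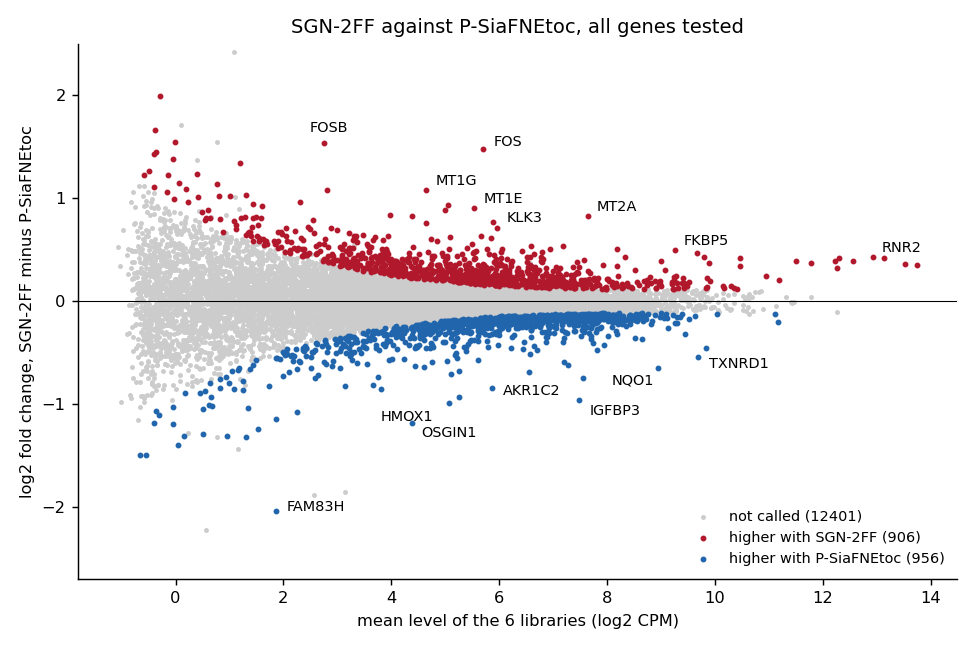
Mean level of the 6 libraries on a log2 CPM scale (horizontal axis) against the log2 fold change, SGN-2FF minus P-SiaFNEtoc (vertical axis), for all 14263 genes tested, with 1 point a gene. Red points are the 906 genes called higher with SGN-2FF and blue points the 956 called higher with P-SiaFNEtoc, and the 5th and 95th percentiles of all genes lie at -0.31 and 0.38.

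Few genes of the pathways that the inhibitors act on were called between them at the level of messenger RNA. None of the 21 tested genes of the fucose pathway was called by edgeR, DESeq2 or limma-voom, where edgeR called 13.1% of all genes tested. An unadjusted edgeR p-value under 0.05 was reached by 1 of them, against 26.5% of all genes tested. Their log2 fold changes ran from -0.20 to 0.19 with a median of -0.04, against a median of -0.01 over all genes tested. GMDS, the first enzyme from GDP-mannose to GDP-fucose, had 16, 14.2 and 17 CPM with SGN-2FF and 14.3, 15.6 and 15.6 with P-SiaFNEtoc, a log2 fold change of 0.05 with a 95% confidence interval of -0.13 to 0.23. FUT8, which adds the core fucose, differed by 0.00 with an interval of -0.18 to 0.18. Neither interval holds a difference of 0.3 on the log2 scale, while GFUS, at 0.309 to 1.16 CPM with SGN-2FF, had an interval of -0.94 to 0.68.

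Of the 22 tested genes of the sialic acid pathway, 2 were called, both higher with P-SiaFNEtoc, where 6.7% of all genes tested were called in that direction, and the list had a median of -0.06. The count was 1 in the DESeq2 test and without the second or the third SGN-2FF library or the first P-SiaFNEtoc library. Log2 fold changes of the list ran from -0.35 to 0.41. An unadjusted edgeR p-value under 0.05 was reached by 5 of the 22, against 26.5% of all genes tested. A further 11 of the 33 genes in the list were not tested. ST3GAL1, which caps the core galactose of O-glycans, had 251.8, 262.7 and 258.3 CPM with SGN-2FF and 331.9, 326.3 and 304.1 with P-SiaFNEtoc. DMSO libraries had 298.0 to 318.0, so the P-SiaFNEtoc libraries lay at or near the vehicle level and those with SGN-2FF below it (log2 fold change -0.32 ± 0.04 SE, adjusted p = 1.00e-07). ST3GAL5, the synthase of the ganglioside GM3, was the other (-0.29 ± 0.09 SE, adjusted p = 0.0217), and its call was lost without any of 3 of the 6 libraries, the highest adjusted p being 0.223. GNE, CMAS and SLC35A1, which make, activate and carry sialic acid, were not called, with intervals of -0.09 to 0.39, -0.18 to 0.00 and -0.08 to 0.19. Intervals were wide for some scarce sialyltransferases that were not called. They ran from -0.70 to -0.00 for ST6GALNAC2 (-0.35) and from -0.08 to 0.91 for ST3GAL6 (0.41). Of the exon bases of SLC35A1, 55.5% are shared with another annotated gene on the same strand, and its counts may hold reads of either.

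ST6GAL1, which adds the sialic acid that lectins detect in its α2,6 linkage, had nearly the same level under both inhibitors. It had 34, 36 and 35.8 CPM with SGN-2FF and 36.4, 38.8 and 35.8 with P-SiaFNEtoc, against 22.7, 20.4 and 25.5 with DMSO. The inhibitors overlapped each other and both lay above DMSO, with log2 fold changes from DMSO of 0.63 (adjusted p = 3.03e-07) and 0.70 (adjusted p = 7.71e-09). The direct difference was -0.07 with an interval of -0.19 to 0.06.

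**Figure D2:**
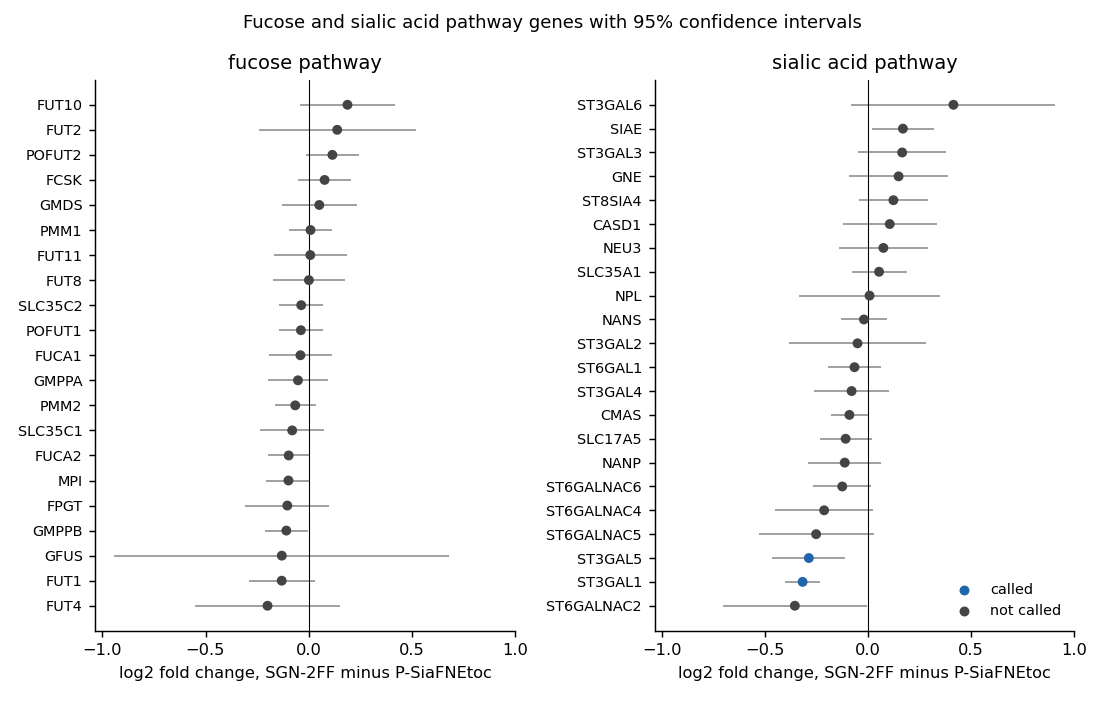
Log2 fold change, SGN-2FF minus P-SiaFNEtoc (horizontal axis), with 95% confidence intervals (lines) for the 21 tested genes of the fucose pathway and the 22 of the sialic acid pathway, 1 gene a row. Blue points are the 2 called genes, ST3GAL1 and ST3GAL5, and every other interval belongs to a gene that was not called.

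Among the other listed enzymes that build glycans, 5 of 32 tested were called, a share near the 13.1% of all genes tested, and 4 of the 5 were higher with P-SiaFNEtoc. The 4 became 7 without the third P-SiaFNEtoc library and 8 with voom quality weights. GALNT10, which starts O-glycans with N-acetylgalactosamine, had 71.3 to 75.8 CPM with SGN-2FF and 92.7 to 107.0 with P-SiaFNEtoc, against 76.6 to 78.5 with DMSO. Its 3 P-SiaFNEtoc libraries were the highest of the 9 (-0.47 ± 0.05 SE, adjusted p = 1.68e-09). MAN1A1, a Golgi mannosidase (-0.30), B4GALT1, the main galactosyltransferase of N-glycans (-0.25), and MGAT1, which opens the way to complex N-glycans (-0.24), were also higher with P-SiaFNEtoc, and MAN2A2, another mannosidase, was higher with SGN-2FF (0.27). The call of MAN1A1 was lost without the first P-SiaFNEtoc library (adjusted p = 0.0582). The 7 tested galactosyltransferases ran from -0.25 to -0.03 with a median of -0.14, against a median of -0.01 over all genes tested. Only B4GALT1 of them passed the test, where 13.1% of all genes tested were called.

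Targets of NRF2 were lower with SGN-2FF and had the lowest median of the 26 gene lists. NRF2 (NFE2L2) is the transcription factor that switches on genes of quinone reduction, glutathione synthesis, NADPH supply and iron storage through antioxidant response elements. Of 27 tested members, 21 were higher with P-SiaFNEtoc and none was higher with SGN-2FF, where 6.7% of all genes tested were called in that direction. The median log2 fold change of the members was -0.36, while NFE2L2 itself, at 50.6 to 52.4 CPM with SGN-2FF and 46.5 to 49.4 with P-SiaFNEtoc, was not called (0.09, adjusted p = 0.344). Against DMSO their median was -0.25 with SGN-2FF and 0.06 with P-SiaFNEtoc.

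OSGIN1, an oxidative stress response gene at chr16:83931311-83966332 in hg38, had 12, 13.1 and 13.2 CPM with SGN-2FF and 29.4, 27.1 and 30.4 with P-SiaFNEtoc. DMSO had 31.2, 27.9 and 28.3, so the P-SiaFNEtoc libraries overlapped the vehicle and all 3 SGN-2FF libraries lay far below both (2.27-fold higher with P-SiaFNEtoc, log2 fold change -1.18 ± 0.08 SE, adjusted p = 1.21e-15). NQO1, a quinone reductase often used as a readout of NRF2, at chr16:69706996-69726668, had 400.3, 370.5 and 384.6 CPM with SGN-2FF and 636.0, 608.8 and 567.2 with P-SiaFNEtoc, against 576.2 to 607.5 with DMSO. The pattern was the same, with the SGN-2FF libraries alone at the low end (-0.65 ± 0.04 SE, adjusted p = 1.62e-16). TXNRD1, the thioredoxin reductase, had 668.5, 667.2 and 676.0 CPM with SGN-2FF and 988.3, 990.3 and 960.8 with P-SiaFNEtoc (-0.55 ± 0.04 SE, adjusted p = 1.73e-15). Its DMSO libraries, at 1037 to 1051, stood above both. Of the exon bases of OSGIN1, 8.2% overlap MLYCD on the same strand, and 19.4% of those of NQO1 overlap a gene on the opposite strand.

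HMOX1, the heme oxygenase that releases iron from heme, moved in opposite directions from DMSO. It had 23.0, 22.4 and 22.4 CPM with SGN-2FF, 47.2, 41.1 and 45.5 with P-SiaFNEtoc and 40.6, 37.8 and 39.2 with DMSO. It fell with SGN-2FF (log2 fold change from DMSO -0.80, adjusted p = 3.72e-10) and rose slightly with P-SiaFNEtoc (0.19, adjusted p = 0.0272), which left a direct difference of -0.99 ± 0.07 SE (adjusted p = 1.21e-15). The ferritin chains that store iron were lower with SGN-2FF as well. FTH1 had 750.9 to 804.1 CPM with SGN-2FF and 1041 to 1077 with P-SiaFNEtoc (-0.46 ± 0.04 SE), and FTL had 304.8 to 333.3 and 405.1 to 417.1 (-0.36 ± 0.04 SE). Processed copies share 8.3% of the 100-base windows of FTH1 and 3.4% of those of FTL, and 63.2% of the exon bases of FTH1 lie opposite another gene, so their counts are less certain.

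The genes of glutathione supply followed. SLC7A11, the cystine importer, had 63.9, 75.7 and 75.4 CPM with SGN-2FF and 125.1, 117.0 and 105.4 with P-SiaFNEtoc, with no overlap (-0.69 ± 0.06 SE, adjusted p = 5.79e-10). GCLM, the modifier subunit of the enzyme that starts glutathione synthesis, had 62.5, 62.1 and 63.4 CPM with SGN-2FF and 88.8, 86.7 and 82.4 with P-SiaFNEtoc (-0.46 ± 0.05 SE, adjusted p = 1.60e-09). For GCLM both inhibitors were below DMSO, which had 97.0 to 101.5.

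The 3 tested aldo-keto reductases lay above DMSO with both inhibitors. AKR1C2, which reduces ketosteroids and other carbonyls, had 41.1, 40.6 and 44.2 CPM with SGN-2FF and 78.4, 80.3 and 66.3 with P-SiaFNEtoc, against 31.0, 29.8 and 31.5 with DMSO. It rose with both inhibitors, by 0.45 (adjusted p = 5.40e-06) with SGN-2FF and by 1.29 (adjusted p = 1.22e-15) with P-SiaFNEtoc, and the direct difference was -0.84 ± 0.06 SE (adjusted p = 1.10e-14). AKR1C1, at 5.75 to 7.58 CPM with SGN-2FF and 8.96 to 9.35 with P-SiaFNEtoc, showed the same order above a DMSO level of 3.78 to 4.28 (-0.50 ± 0.12 SE, adjusted p = 0.00364). AKR1C3 was also higher with P-SiaFNEtoc (-0.32). These paralogs share sequence, with 20.1% of the 100-base windows of AKR1C2 found in its relatives, and the split of reads between them is uncertain. The members that were not called were PIR, ABCC1, ABCC2, PGD, TALDO1 and TXN, of which TXN, thioredoxin itself, stood at 0.11.

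The promoter entries of RefSeq (GRCh38.p14) covered 19 of the 27 tested members with 23 start sites. The core of the antioxidant response element, TGACNNNGC searched on both strands from 250 bases before to 50 after the start, was in 7 of the 23 promoters (30.4%), against 4687 of all 35116 promoters (13.3%) and 14.6% of the promoters of genes tested. The genes with a match were EPHX1, GCLM, ME1, PGD, PIR and TXNRD1, while OSGIN1 and NQO1 had none in this window. PGD and PIR hold the letters and were not called. The 250 bases before the start are shown for the 2 called members with a match whose values are given above, with the matching letters in capitals, read 5′ to 3′ on the strand of the gene: GCLM at chr1:93909431-93909680 on the minus strand and TXNRD1 at chr12:104215529-104215778 and chr12:104286782-104287031 on the plus strand.
GCLM: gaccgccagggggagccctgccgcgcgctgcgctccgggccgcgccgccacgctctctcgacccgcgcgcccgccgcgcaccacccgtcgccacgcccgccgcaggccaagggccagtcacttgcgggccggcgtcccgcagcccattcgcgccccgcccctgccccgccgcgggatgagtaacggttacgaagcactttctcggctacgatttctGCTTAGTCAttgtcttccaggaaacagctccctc
TXNRD1, first start: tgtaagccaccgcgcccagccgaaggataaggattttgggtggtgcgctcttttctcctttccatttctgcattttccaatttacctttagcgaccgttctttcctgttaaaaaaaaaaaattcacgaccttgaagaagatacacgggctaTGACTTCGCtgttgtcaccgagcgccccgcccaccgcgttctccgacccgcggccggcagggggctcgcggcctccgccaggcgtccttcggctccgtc
TXNRD1, second start: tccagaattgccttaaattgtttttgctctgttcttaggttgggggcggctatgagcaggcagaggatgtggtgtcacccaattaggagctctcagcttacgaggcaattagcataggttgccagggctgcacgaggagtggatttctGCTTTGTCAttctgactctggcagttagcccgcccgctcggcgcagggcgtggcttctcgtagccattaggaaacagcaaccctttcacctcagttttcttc
The capitals in GCLM and in the second TXNRD1 start are the core read on the opposite strand. A match shows that the letters are present and not that a factor binds there.

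**Figure D3:**
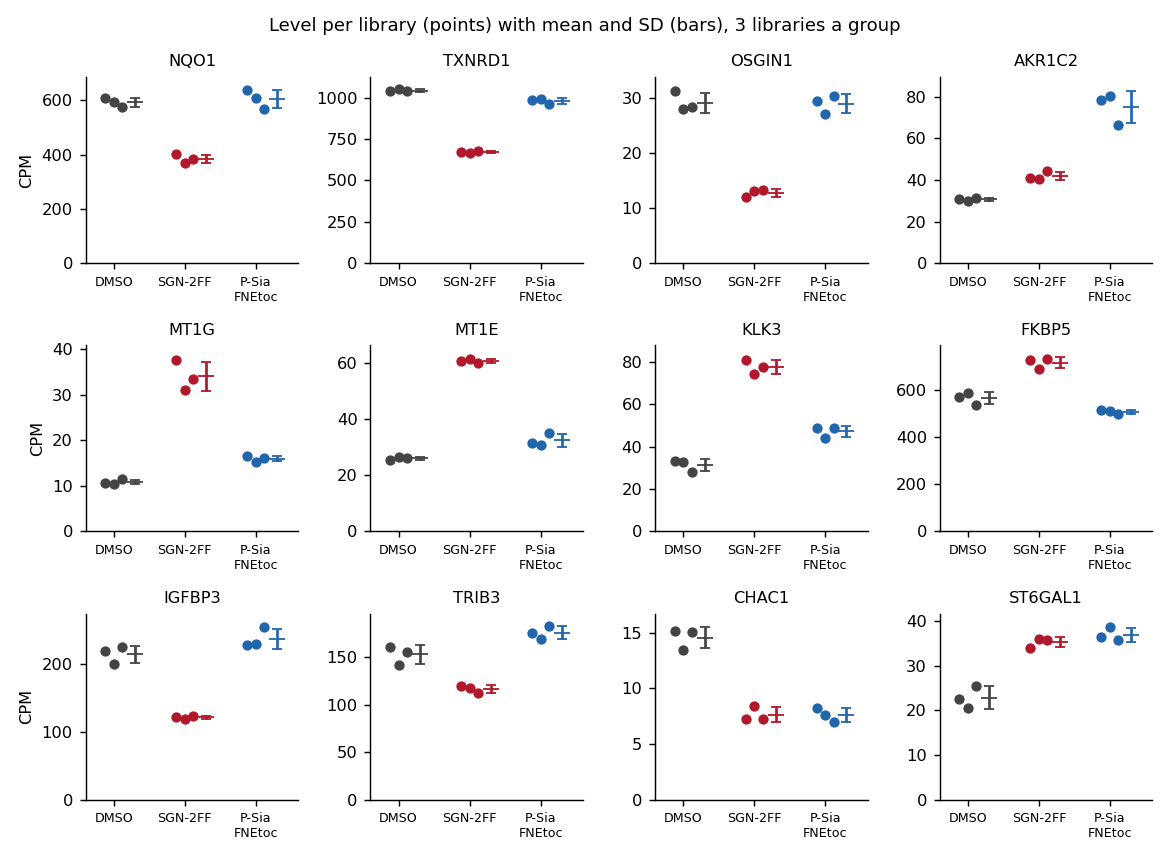
CPM (vertical axes, from 0) of 12 genes in the 3 DMSO, 3 SGN-2FF and 3 P-SiaFNEtoc libraries, with points for libraries and bars for the mean and SD of each group. NQO1, TXNRD1, OSGIN1, IGFBP3 and TRIB3 are lowest with SGN-2FF, MT1G, MT1E, KLK3 and FKBP5 are highest with it, and CHAC1 and ST6GAL1 are alike under both inhibitors.

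Targets of the amino acid response were mostly lower with SGN-2FF. ATF4 is the transcription factor of the integrated stress response and drives genes of amino acid synthesis, uptake and tRNA charging. Of the 33 members of its list, 22 were higher with P-SiaFNEtoc, 1 was higher with SGN-2FF and the median was -0.23, where 6.7% and 6.35% of all genes tested were called in these directions. Their median from DMSO was -0.22 with SGN-2FF and 0.02 with P-SiaFNEtoc. By role, 11 of 13 genes of amino acid synthesis and uptake, 4 of 5 tRNA synthetases, 5 of 9 regulators and 2 of 6 stress effectors were higher with P-SiaFNEtoc.

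TRIB3, a pseudokinase that holds back ATF4, had 119.9, 117.2 and 112.5 CPM with SGN-2FF and 176.0, 169.0 and 183.1 with P-SiaFNEtoc, against 141.9 to 161.3 with DMSO. The DMSO libraries lay between the inhibitors, and TRIB3 fell with SGN-2FF (-0.39, adjusted p = 5.69e-07) and rose with P-SiaFNEtoc (0.20, adjusted p = 0.0021). The direct difference was -0.59 ± 0.05 SE (adjusted p = 1.19e-14). SLC7A5, the large neutral amino acid transporter, had 197.8 to 222.1 CPM with SGN-2FF and 274.0 to 290.8 with P-SiaFNEtoc (-0.43 ± 0.04 SE), and ASNS, the asparagine synthetase, had 219.1 to 233.6 and 280.3 to 301.4 (-0.34 ± 0.04 SE). Another annotated gene on the same strand shares 49.3% of the exon bases of ASNS. GDF15, a secreted stress cytokine, had 161.8, 124.1 and 134.9 CPM with SGN-2FF and 240.7, 238.1 and 223.6 with P-SiaFNEtoc, well above the DMSO range of 154.4 to 171.3 (-0.74 ± 0.09 SE, adjusted p = 0.00108). Its call was lost without the third SGN-2FF library, at an adjusted p of 0.0541.

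Other members showed no such order. ATF4 itself had 430.9 to 452.4 CPM with SGN-2FF and 429.5 to 459.7 with P-SiaFNEtoc, with an interval of the difference of -0.10 to 0.07. CHAC1, which breaks down glutathione, had 7.27, 8.41 and 7.22 CPM with SGN-2FF and 8.24, 7.61 and 6.96 with P-SiaFNEtoc, against 13.5 to 15.2 with DMSO. It fell with both inhibitors, by 0.92 and 0.93 on the log2 scale, and the direct difference was 0.01 with an interval of -0.24 to 0.26. DDIT3 (CHOP), a regulator of stress-induced death, was the member higher with SGN-2FF, at 70.5 to 75.0 CPM against 58.8 to 64.1 with P-SiaFNEtoc (0.23 ± 0.05 SE, adjusted p = 0.00164), and its P-SiaFNEtoc libraries were below the DMSO range of 73.9 to 80.7. A gene on the opposite strand covers 31.6% of the exon bases of DDIT3.

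Genes of protein folding and disposal in the endoplasmic reticulum differed by less. Of 27 tested, 10 were higher with P-SiaFNEtoc (against 6.7% of all genes tested) and none with SGN-2FF, and the median was -0.10. The 10 became 6 without the second or the third SGN-2FF library or the second P-SiaFNEtoc library. EDEM1, which hands misfolded glycoproteins to degradation, had 61.7 to 67.0 CPM with SGN-2FF and 76.1 to 80.9 with P-SiaFNEtoc (-0.27 ± 0.05 SE, adjusted p = 0.000175). SDF2L1 (-0.23) and SEC24D (-0.21) were the next by size. SDF2L1 was not called with the DMSO libraries in the fit (adjusted p = 0.217), and SEC24D was lost without any 1 of 4 libraries and in the DESeq2 test. HSPA5 (BiP), the central chaperone, was not called, at 1608 to 1642 CPM and 1690 to 1810 and an interval of -0.18 to -0.02.

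Genes of cholesterol synthesis and uptake were also lower with SGN-2FF. Of 24 tested, 14 were higher with P-SiaFNEtoc (against 6.7% of all genes tested) and none with SGN-2FF. The 14 became 9 in the DESeq2 test, 7 without the second SGN-2FF library and 8 without the second P-SiaFNEtoc library. The median was -0.18, and against DMSO the medians were -0.16 with SGN-2FF and 0.02 with P-SiaFNEtoc. HMGCS1, which makes the substrate of HMG-CoA reductase, had 130.5, 127.3 and 130.3 CPM with SGN-2FF and 160.2, 172.0 and 165.6 with P-SiaFNEtoc, and DMSO had 160.3 to 168.4. The P-SiaFNEtoc libraries overlapped DMSO and the SGN-2FF libraries lay below (-0.36 ± 0.04 SE, adjusted p = 2.21e-08), although 37.7% of its exon bases lie opposite another gene. STARD4, a carrier of cholesterol within cells, had 26.6 to 35.6 CPM against 37.4 to 42.0 (-0.44 ± 0.08 SE, adjusted p = 0.000125). LSS (-0.38), which closes the sterol ring, lost its call without either second library and in the DESeq2 test.

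The metallothioneins stood out on the side of SGN-2FF. These small cysteine-rich proteins bind zinc, copper and cadmium, and the metal-sensing factor MTF1 switches their genes on through metal response elements. All 5 metallothioneins that had enough counts were higher with SGN-2FF, by 0.82 to 1.08 on the log2 scale, where 6.35% of all genes tested were called in that direction. MT1A, MT1B, MT1H and MT1M were below the filter, and the whole list, with the zinc transporters SLC30A1 and SLC39A10, had 5 of 7 tested members higher with SGN-2FF.

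MT2A, the most counted of them, had 286.5, 246.4 and 231.1 CPM with SGN-2FF, 130.1, 148.9 and 153.2 with P-SiaFNEtoc and 113.0, 123.1 and 135.5 with DMSO. Every SGN-2FF library lay above every other library, and those with P-SiaFNEtoc overlapped DMSO (0.82 ± 0.10 SE, adjusted p = 0.00266). MT1E had 60.5, 61.3 and 59.9 CPM with SGN-2FF and 31.5, 30.8 and 34.9 with P-SiaFNEtoc, a difference of 1.87-fold (0.91 ± 0.06 SE, adjusted p = 2.19e-16). MT1G had 37.6, 31.2 and 33.5 CPM with SGN-2FF and 16.5, 15.4 and 16.2 with P-SiaFNEtoc, a difference of 2.12-fold (1.08 ± 0.08 SE, adjusted p = 2.48e-15). For both genes DMSO was lower again, at 25.5 to 26.3 and 10.5 to 11.4, and each rose with either inhibitor. MT1X, at 41.2 to 46.6 CPM and 20.5 to 24.6, was alike (0.94 ± 0.07 SE), but another annotated gene shares 18.6% of its exon bases on the same strand. MT1F was scarce, at 2.55 to 2.87 CPM against 1.10 to 1.74 (1.02 ± 0.24 SE, adjusted p = 0.00188).

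The zinc exporter SLC30A1, which MTF1 also controls, went the other way. It had 19.3, 19.3 and 19.0 CPM with SGN-2FF and 25.5, 21.9 and 20.8 with P-SiaFNEtoc, a log2 fold change of -0.25 ± 0.08 SE (adjusted p = 0.0303). DMSO, at 18.6 to 21.1, overlapped both groups, and the call was lost without 4 of the 6 libraries, with an adjusted p of up to 0.311. SLC39A10, a zinc importer, stood at 0.07 and was not called.

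The metallothionein genes lie together on chromosome 16, with MT2A at chr16:56608584-56609497, MT1E at chr16:56625475-56627112, MT1F at chr16:56657731-56660698, MT1G at chr16:56666730-56668065 and MT1X at chr16:56682470-56684196 in hg38. RefSeq promoter entries covered MT2A and MT1X of these. The core of the metal response element, TGCACNC or TGCGCNC on either strand, was found 8 times in the 300 bases of the MT2A promoter and 4 times in that of MT1X. At least 3 matches were present in 809 of all 35116 promoters (2.3%) and in 3.19% of the promoters of genes tested. SLC30A1 had 2 matches. The 250 bases before each start are shown because they carry these repeats, with the matches in capitals and 5′ to 3′ on the plus strand, for MT2A at chr16:56608334-56608583 and for MT1X at chr16:56682220-56682469.
MT2A: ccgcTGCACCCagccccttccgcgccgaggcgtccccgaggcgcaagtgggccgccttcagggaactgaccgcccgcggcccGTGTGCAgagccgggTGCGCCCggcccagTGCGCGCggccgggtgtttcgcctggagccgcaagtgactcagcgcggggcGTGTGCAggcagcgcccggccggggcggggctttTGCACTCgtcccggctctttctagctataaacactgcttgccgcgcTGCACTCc
MT1X: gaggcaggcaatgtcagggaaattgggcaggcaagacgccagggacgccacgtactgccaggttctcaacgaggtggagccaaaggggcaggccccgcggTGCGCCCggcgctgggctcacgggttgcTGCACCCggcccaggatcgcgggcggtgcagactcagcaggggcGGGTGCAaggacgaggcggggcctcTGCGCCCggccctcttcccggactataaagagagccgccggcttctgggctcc
Runs in capitals that begin with G are the core read on the opposite strand. No peak or binding data belong to these libraries.

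Androgen-responsive genes were higher with SGN-2FF. Androgens drive kallikreins and other secretory genes in luminal prostate cells. Of 24 tested members, 12 were higher with SGN-2FF and 1 was higher with P-SiaFNEtoc, with a median of 0.26, where 6.35% and 6.7% of all genes tested were called in these directions. Their median from DMSO was 0.29 with SGN-2FF and 0.08 with P-SiaFNEtoc.

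KLK3, which encodes prostate-specific antigen and lies at chr19:50854915-50860764, had 80.8, 74.2 and 77.3 CPM with SGN-2FF, 48.5, 44.1 and 48.8 with P-SiaFNEtoc and 33.1, 32.9 and 28.1 with DMSO. It rose with both inhibitors, and the SGN-2FF libraries were 1.64-fold above those with P-SiaFNEtoc (0.71 ± 0.05 SE, adjusted p = 1.84e-14). KLK2 had 144.9, 144.0 and 144.7 CPM with SGN-2FF and 96.4, 105.7 and 104.4 with P-SiaFNEtoc, again above a DMSO range of 59.7 to 61.9 (0.50 ± 0.05 SE, adjusted p = 7.34e-12). KLK4, at 383.3 to 414.8 CPM against 304.3 to 360.1, kept the same order with a smaller step (0.30 ± 0.05 SE). TMPRSS2, the membrane protease, had 69.4, 63.0 and 64.1 CPM with SGN-2FF and 46.6, 51.5 and 44.3 with P-SiaFNEtoc, with DMSO at 29.4 to 30.8 (0.46 ± 0.06 SE, adjusted p = 3.16e-08).

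FKBP5, a chaperone partner of steroid receptors, behaved differently with P-SiaFNEtoc. It had 726.3, 688.4 and 733.1 CPM with SGN-2FF, 513.7, 510.5 and 499.3 with P-SiaFNEtoc and 571.4, 589.4 and 537.4 with DMSO, so the DMSO libraries lay between the inhibitors without overlap. FKBP5 rose with SGN-2FF (0.34, adjusted p = 1.14e-07) and fell with P-SiaFNEtoc (-0.16, adjusted p = 0.00616), a direct difference of 0.49 ± 0.04 SE (adjusted p = 7.41e-14). STEAP2, a metalloreductase (0.50), and SLC45A3 or prostein (0.63) were also higher with SGN-2FF. For STEAP2 the P-SiaFNEtoc libraries, at 227.7 to 250.3 CPM, overlapped DMSO at 235.0 to 269.5, while those with SGN-2FF had 329.9 to 359.0. Its neighbour STEAP1, which is not in the list, had 171.3 to 172.7 CPM against 111.2 to 122.6 (0.54 ± 0.05 SE, adjusted p = 4.29e-13).

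Of the members, 11 were not called, among them ABCC4 at -0.32, NDRG1 at -0.06 and ACP3 at 0.04. FOXA1, a pioneer factor of luminal cells, had 419.4 to 432.1 CPM with SGN-2FF and 478.8 to 490.2 with P-SiaFNEtoc, and was the 1 luminal marker of 11 that was higher with P-SiaFNEtoc (-0.19 ± 0.04 SE, adjusted p = 0.00033). The luminal markers KRT8, KRT18, HOXB13 and FOLH1 were not called.

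**Figure D4:**
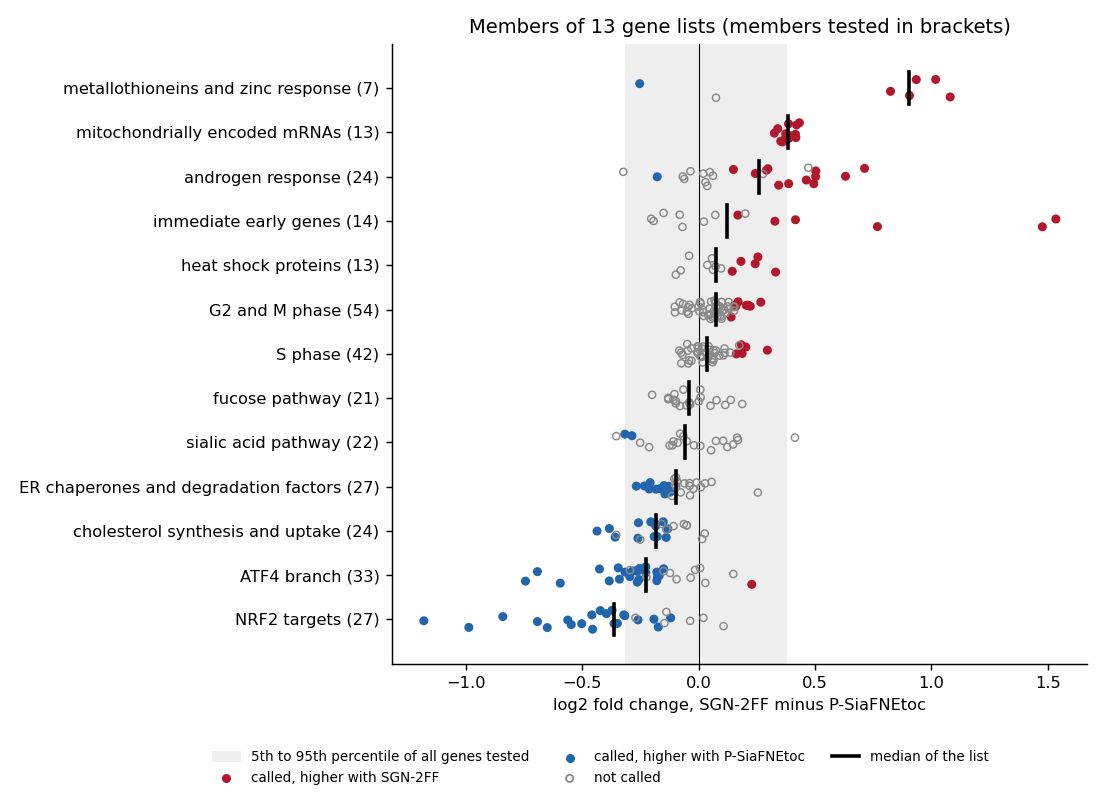
Log2 fold change, SGN-2FF minus P-SiaFNEtoc (horizontal axis), of every tested member of 13 gene lists, with the median of each list as a black bar and the 5th to 95th percentile of all genes tested in grey. Metallothioneins (median 0.91), mitochondrial mRNAs (0.39) and the androgen response (0.26) lie to the right, and NRF2 targets (-0.36), the ATF4 branch (-0.23) and cholesterol genes (-0.18) to the left.

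All mitochondrially encoded transcripts tested in the lists were higher with SGN-2FF. The mitochondrial genome encodes 13 subunits of the respiratory chain and ATP synthase and 2 ribosomal RNAs. The 13 mRNAs differed by 0.33 to 0.43 with a median of 0.39. All 13 were called, where 6.35% of all genes tested were called higher with SGN-2FF. ND5, of complex I, had 5661, 5571 and 6013 CPM with SGN-2FF and 3888, 4611 and 4384 with P-SiaFNEtoc, against 3919 to 4818 with DMSO (0.42 ± 0.05 SE, adjusted p = 6.75e-09). The P-SiaFNEtoc libraries overlapped DMSO, and the SGN-2FF libraries lay above both. The ribosomal RNAs RNR1 (0.47 ± 0.04 SE) and RNR2 (0.43 ± 0.05 SE) had the same order. These 13 mRNAs come from common precursor transcripts, so they are not independent measurements, and in such bulk libraries more mitochondrial RNA per cell and less of other RNA cannot be told apart. With all mitochondrially encoded genes left out of the counts, 1838 genes were called, 1835 of them among the 1862.

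**Figure D5:**
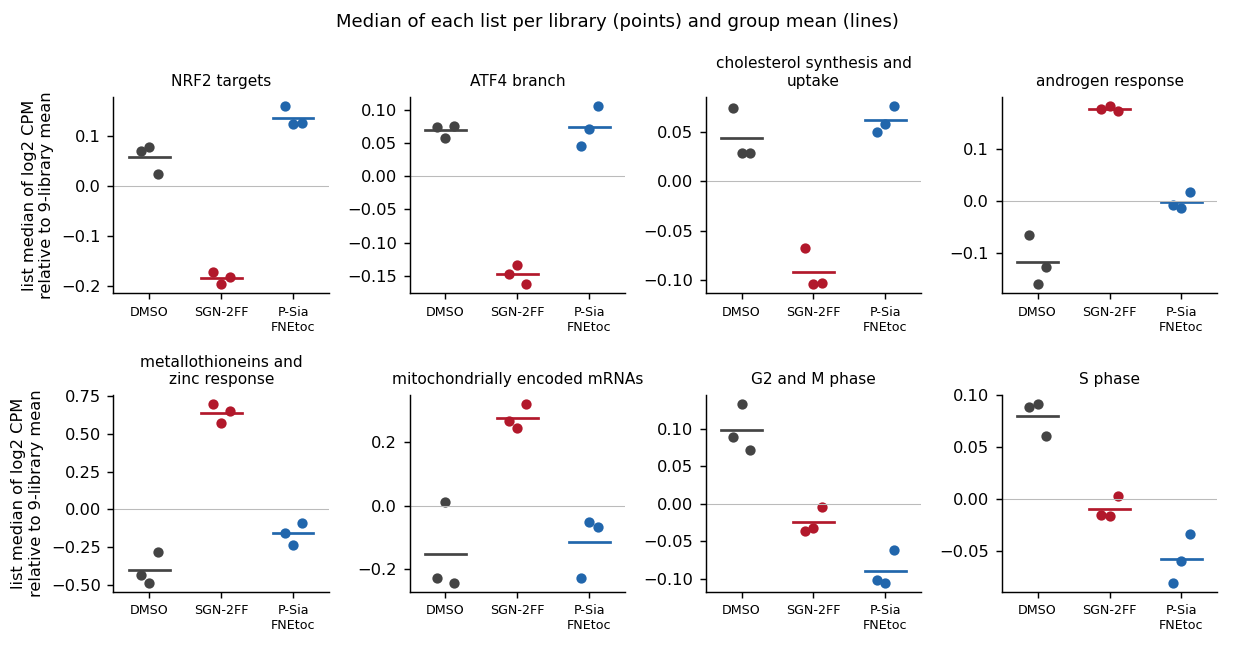
Median over the members of each of 8 gene lists of log2 CPM relative to the mean of the 9 libraries (vertical axes), for each DMSO, SGN-2FF and P-SiaFNEtoc library (points), with group means as lines and an axis of its own for each list. For NRF2 targets, the ATF4 branch, cholesterol genes, androgen response, metallothioneins and mitochondrial mRNAs the SGN-2FF points lie apart from both other groups, and in the G2 and M phase and S phase panels all points of both inhibitors lie below those of DMSO.

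Genes of the cell cycle differed slightly. Of 54 genes of G2 and M phase, 8 were higher with SGN-2FF and none with P-SiaFNEtoc, with a median of 0.07, and of 42 tested genes of S phase, 5 were higher with SGN-2FF and none with P-SiaFNEtoc, with a median of 0.03, where 6.35% of all genes tested were called higher with SGN-2FF. Without the second P-SiaFNEtoc library the counts were 4 and 3, and that of S phase was 2 without the second and 3 without the third SGN-2FF library and 8 with voom quality weights. Both lists were lower than DMSO under either inhibitor, with medians of -0.12 for SGN-2FF and -0.19 for P-SiaFNEtoc in G2 and M phase and of -0.09 and -0.12 in S phase. SMC4, a condensin subunit, had 178.2 to 190.2 CPM with SGN-2FF and 151.0 to 155.6 with P-SiaFNEtoc (0.27 ± 0.04 SE, adjusted p = 7.71e-06). CASP8AP2, a nuclear factor of histone gene expression (0.30), HMGB2, a chromatin protein (0.22), and CDCA3 (0.21) were further members. The proliferation markers MKI67, TOP2A and PCNA were not called, with intervals of -0.00 to 0.16, 0.02 to 0.18 and -0.05 to 0.14.

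CDKN1B (p27) and CDKN1A (p21), which hold back cyclin-dependent kinases, were both higher with P-SiaFNEtoc. CDKN1B had 242.4, 241.4 and 246.0 CPM with SGN-2FF and 274.4, 277.2 and 281.1 with P-SiaFNEtoc, against 232.7 to 238.6 with DMSO (-0.19 ± 0.04 SE, adjusted p = 0.000586). It rose with P-SiaFNEtoc (0.23, adjusted p = 4.47e-05) and did not pass the test with SGN-2FF (0.04, adjusted p = 0.426). CDKN1A had 128.2 to 156.1 CPM with SGN-2FF and 161.9 to 173.9 with P-SiaFNEtoc (-0.31 ± 0.06 SE, adjusted p = 0.000429). Among 19 tested targets of p53, CDKN1A and GDF15 were the 2 called, where 13.1% of all genes tested were called in either direction. The median of these targets was -0.06. None of 10 tested replication-dependent histone genes and none of 6 tested interferon-responsive genes was called by edgeR, DESeq2 or limma-voom. An unadjusted edgeR p-value under 0.05 was reached by 0 and 1 of them, against 26.5% of all genes tested.

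Immediate early genes of the AP-1 and EGR families, which respond to growth factors within minutes, included FOSB and FOS, with the 2 largest differences on the side of SGN-2FF among called genes averaging 50 counts or more, and both varied widely between libraries. FOS had 61.9, 70.5 and 96.8 CPM with SGN-2FF and 26.0, 20.6 and 35.7 with P-SiaFNEtoc, against 53.6, 59.7 and 79.5 with DMSO. FOSB had 7.58, 7.86 and 14.8 CPM with SGN-2FF and 3.60, 2.71 and 3.93 with P-SiaFNEtoc. The SGN-2FF libraries overlapped DMSO for both genes and the P-SiaFNEtoc libraries were the lowest. The differences of 1.48 ± 0.28 SE (adjusted p = 0.0437) and 1.53 ± 0.33 SE (adjusted p = 0.0328) were close to the threshold, and the call of FOS was lost when any 1 of the 6 libraries was left out and that of FOSB without any 1 P-SiaFNEtoc library, with adjusted p-values of up to 0.152 and 0.177. EGR1, at 67.7 to 86.9 CPM against 38.8 to 46.9, was firmer (0.77 ± 0.10 SE, adjusted p = 0.00119), as was JUN at 100.1 to 105.4 against 80.4 to 84.8 (0.33 ± 0.05 SE, adjusted p = 1.33e-06). In all, 6 of 14 tested members were higher with SGN-2FF (against 6.35% of all genes tested) and none with P-SiaFNEtoc, and the 6 became 3 without the first or the second P-SiaFNEtoc library.

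Some heat shock proteins were higher with SGN-2FF. Of 13 tested, 5 were higher with SGN-2FF (against 6.35% of all genes tested) and none with P-SiaFNEtoc, with a median of 0.07. DNAJB1, a co-chaperone of HSP70, had 110.3 to 116.2 CPM with SGN-2FF and 88.8 to 89.8 with P-SiaFNEtoc, against 116.0 to 128.7 with DMSO (0.33 ± 0.05 SE, adjusted p = 5.98e-07). HSPA8, the constitutive HSP70, had 2152, 2084 and 2166.1 CPM and 1780 to 1830, with DMSO at 2189 to 2366 (0.24 ± 0.04 SE, adjusted p = 1.52e-05). Both fell with P-SiaFNEtoc, by 0.44 and 0.34, and did not pass the test with SGN-2FF.

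Single genes with large differences lay outside these groups. IGFBP3, a secreted carrier of insulin-like growth factors at chr7:45912245-45921874, had the smallest adjusted p of all genes tested with edgeR, 3.44e-22. It had 121.8, 118.9 and 122.6 CPM with SGN-2FF, 227.1, 228.3 and 253.6 with P-SiaFNEtoc and 218.0, 199.9 and 223.6 with DMSO, a direct difference of -0.96 ± 0.05 SE. IGF1R, the receptor of the same growth factors, went the other way, with 19.1, 21.3 and 19.96 CPM with SGN-2FF and 11.9, 12.4 and 9.54 with P-SiaFNEtoc, the latter around the DMSO range of 11.2 to 11.9 (0.84 ± 0.09 SE, adjusted p = 2.04e-09). Both genes moved with SGN-2FF away from DMSO, by -0.82 and 0.80.

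CYP1A1 and CYP1B1, cytochromes P450 that the aryl hydrocarbon receptor controls, were lower with SGN-2FF. CYP1A1 had 28.3, 25.6 and 25 CPM with SGN-2FF and 49.8, 47.6 and 53 with P-SiaFNEtoc, against 46 to 51.2 with DMSO (-0.93 ± 0.07 SE, adjusted p = 1.63e-15). CYP1B1, at 6.15 to 6.68 CPM against 10.4 to 11.9, showed the same order (-0.83 ± 0.12 SE, adjusted p = 4.94e-07). CYP1A2 (-0.66) and TIPARP (-0.30), further targets of the receptor, were called too, CYP1A2 not without the third P-SiaFNEtoc library (adjusted p = 0.0546). AHRR, the repressor of the receptor, was not called, with an interval of -0.59 to 0.03. Another annotated gene on the same strand shares 58.7% of the exon bases of AHRR, and its counts may hold reads of either. CYP4F8, a fatty acid hydroxylase of the prostate, lay on the other side, at 26.1 to 27.6 CPM with SGN-2FF and 13.6 to 17.6 with P-SiaFNEtoc (0.83 ± 0.08 SE, adjusted p = 1.84e-10).

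Further single genes were lower with SGN-2FF. HOXA13, a homeobox gene of the urogenital tract, had 9.20, 9.14 and 11.7 CPM with SGN-2FF, 18.2, 18.6 and 17.1 with P-SiaFNEtoc and 13.2, 13.2 and 13.9 with DMSO. DMSO lay between the inhibitors without overlap (-0.85 ± 0.10 SE, adjusted p = 4.99e-09). DLX3, another homeobox gene, had 2.64 to 3.48 CPM with SGN-2FF and 5.81 to 7.28 with P-SiaFNEtoc (-1.08 ± 0.16 SE), and PCDH17, a protocadherin, had 1.83 to 2.56 and 4.06 to 5.63 (-1.14 ± 0.19 SE). ID2, a target of BMP signalling that blocks differentiation factors, had 117.2 to 124.2 CPM with SGN-2FF and 181.3 to 196.4 with P-SiaFNEtoc (-0.62 ± 0.04 SE, adjusted p = 2.04e-15), and ID1 (-0.29) and ID3 (-0.22) were lower as well.

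Other single genes lay on either side. RSRP1, an arginine and serine rich protein, had 38.4 to 43.6 CPM with SGN-2FF and 20.2 to 23.8 with P-SiaFNEtoc (0.89 ± 0.07 SE), and here the SGN-2FF libraries overlapped DMSO, at 31.8 to 42.8. CHRNA2, a nicotinic receptor subunit, had 112.1 to 115.7 CPM against 76.6 to 80.6 (0.54 ± 0.05 SE). TRNY, annotated as a mitochondrial tRNA, was among the largest differences at 4.89 to 8.43 CPM against 2.81 to 3.74 (0.96 ± 0.17 SE). Its exon holds 66 bases and the libraries were made from mRNA, so its counts may hold reads of longer mitochondrial transcripts. Like the mitochondrial transcripts above, TRNY was higher with SGN-2FF. FAM83H had the largest difference among the called genes, -2.04 ± 0.48 SE (adjusted p = 0.0474), with libraries at 1.93, 1.22 and 1.16 CPM against 7.26, 7.29 and 2.84. Its DMSO libraries ran from 1.20 to 6.71, and the call was lost without any 1 of 5 of the 6 libraries.

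PPP1R1B and GJB1 rose with both inhibitors and still differed between them. PPP1R1B, a regulator of protein phosphatase 1, had 13 to 17.9 CPM with SGN-2FF, 11 to 12.5 with P-SiaFNEtoc and 4.12 to 5.64 with DMSO (0.40 ± 0.10 SE, adjusted p = 0.00517), and lost its call without the first SGN-2FF library (adjusted p = 0.0873). GJB1, a connexin of gap junctions, had 5.44 to 6.21 CPM with SGN-2FF, 7.48 to 8 with P-SiaFNEtoc and 2.93 to 3.33 with DMSO (-0.38 ± 0.13 SE, adjusted p = 0.0445), and lost it without any 1 library. RBFOX2, a splicing factor that fell with both inhibitors, was not called between them, at -0.43 with an interval of -0.84 to -0.02.

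Of 14 tested genes of the Notch pathway, 1 was called, against 13.1% of all genes tested. It was NOTCH3, at 93.2 to 99.3 CPM with SGN-2FF and 106.1 to 115.4 with P-SiaFNEtoc (-0.21 ± 0.05 SE, adjusted p = 0.00134). The other receptors, the ligands and the targets such as HES1 (-0.10) and HEY1 (0.05) were not called. Of 9 tested feedback genes of WNT signalling, 3 were called, against 13.1% of all genes tested, 2 of them higher with P-SiaFNEtoc. DKK1, a secreted WNT inhibitor, had 50.9 to 58.5 CPM with SGN-2FF and 66.7 to 68.5 with P-SiaFNEtoc, against 51.9 to 59.5 with DMSO (-0.31 ± 0.05 SE, adjusted p = 4.27e-05). RNF43, a ligase that removes WNT receptors, was higher with P-SiaFNEtoc (-0.24 ± 0.05 SE), although 68.4% of its exon bases are shared with another annotated gene, and LGR5, a receptor that strengthens WNT signals, was higher with SGN-2FF (0.30 ± 0.10 SE, adjusted p = 0.0277, and up to 0.139 with a library left out). Both RNF43 and LGR5 rose with either inhibitor from DMSO.

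Of 28 tested genes of hypoxia and glycolysis, 6 were higher with P-SiaFNEtoc (against 6.7% of all genes tested) and none with SGN-2FF, with a median of -0.08. The 6 became 3 in the DESeq2 test and without the second SGN-2FF library, and 2 without the third SGN-2FF or the second or the third P-SiaFNEtoc library. BNIP3L, a mitophagy receptor, had 49.4 to 54.5 CPM with SGN-2FF and 60.9 to 67.6 with P-SiaFNEtoc (-0.32 ± 0.06 SE, adjusted p = 4.29e-05). EGLN3, an oxygen sensor, was scarce at 5.36 to 5.73 CPM against 6.66 to 8.06, and its call was lost without any 1 of 4 libraries. VEGFA, the vascular growth factor, was not called, at 100.4 to 106.1 CPM with SGN-2FF and 95.3 to 105.5 with P-SiaFNEtoc and an interval of -0.04 to 0.15.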

How the data were processed

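RNA was extracted from CWR22Rv1 cells after 72 h, and stranded mRNA libraries were sequenced as single reads. Within Galaxy, the authors used Cutadapt for trimming, HISAT2 for alignment (hg38) and featureCounts for assigning reads to genes. They deposited raw whole-number counts in a separate table for each inhibitor, and the same 3 DMSO libraries stand in both tables used here. The strand setting and annotation release are not given in the sources used here. The SGN-2FF and P-SiaFNEtoc tables were joined on NCBI gene numbers. Genes in the SGN-2FF table alone held 0.0555% of its counts and were left out. Symbols came from the P-SiaFNEtoc table, and positions and shared exons (also 100-base windows of transcripts found in other genes) from GENCODE on hg38.

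Low counts were removed with filterByExpr over the 6 libraries (at least 10 counts, total of 15), and the rest were scaled by TMM over 9 libraries, and tested with edgeR 4.0.16 (robust quasi-likelihood, R 4.3.3) at a Benjamini-Hochberg adjusted p-value under 0.05. SE and 95% intervals come from the fold change and its F statistic. In counts simulated from the same kind of model as the test, with 200 of 14263 genes changed, 94% were recovered at a log2 fold change of 1. At 0.5, 79% were recovered, and 3.89% of the calls were false. In the data 1862 genes were called with a median size of 0.24, so these shares do not carry over to those calls. The alternatives were leaving out each library, a replicate block, DESeq2 1.42.0 and limma 3.58.1 (voom, the tool the study names), other scalings and filters, DMSO in the fit, no mitochondrial genes and stricter thresholds.

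The members and the 26 gene lists (those of the cell cycle from Seurat 5.3.0) were chosen with earlier results of these data known, and lists are described by counts and medians without a test. Genes were named by a rule: the 10 largest differences in each direction among called genes whose mean reached 50 counts and whose libraries did not overlap, up to 3 called members a list and direction, and a fixed set (GMDS, FUT8, GNE, CMAS, SLC35A1, ST6GAL1, CDKN1B, VEGFA, DKK1, MKI67, TOP2A, PCNA, HSPA5, DDIT3, CHAC1, ATF4, KLK3, FKBP5, TMPRSS2, NQO1, TXNRD1, AKR1C2, OSGIN1, GJB1, RBFOX2 and PPP1R1B). CYP1A2, TIPARP, AHRR, STEAP1, CHRNA2, FTH1, FTL, KLK4, ID1, ID2, ID3, NR4A1, JUN, MT2A, GCLM, AKR1C1, ASNS, SLC7A5, other list members, and the metal response motif were chosen after values were seen. Results for some items are not reported here. Figures were drawn with matplotlib 3.10.9.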

Additional observations from a re-analysis of the deposited data

Results flagged for a closer look

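Of the genes named in the report, 5 changed in opposite directions from DMSO with the inhibitors, each change passing edgeR's test, so that the direct contrast is itself the test of the difference. HMOX1 (direct log2 fold change -0.99, SGN-2FF minus P-SiaFNEtoc), IGFBP3 (-0.96), HOXA13 (-0.85) and TRIB3 (-0.59) fell with SGN-2FF and rose with P-SiaFNEtoc, and FKBP5 (0.49) rose with SGN-2FF and fell with P-SiaFNEtoc. The size of the change from DMSO was larger with SGN-2FF for IGFBP3 (-0.82 against 0.14) and for HMOX1 (-0.80 against 0.19), and nearly equal for HOXA13 (-0.43 against 0.42). All comparisons with DMSO share its 3 libraries. Each direct difference kept its direction and its call under all 17 alternatives.

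The 550 genes that the SGN-2FF table lists and the P-SiaFNEtoc table does not were in no comparison. They held 553.2 CPM on average in the SGN-2FF libraries (542.4 to 571.0) and 504.2 to 535.5 in the DMSO libraries of the same table, which was not tested.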

How the results depend on the processing

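Of the 107 genes followed through the alternatives, 92 were called, none of them reversed under an alternative, 75 kept their call under every alternative that gave a value and 17 lost it under at least 1. The count of calls (1862, with 906 higher with SGN-2FF and 956 higher with P-SiaFNEtoc) was 1064 to 1766 with a library left out (522 to 837 and 542 to 930), lowest without the second SGN-2FF library and then without the second P-SiaFNEtoc library (1188, with 593 and 595). It was 1154 in the DESeq2 test (604 and 550), 985 at an adjusted p-value under 0.01 (511 and 474), 174 beyond a log2 fold change of 0.58 (100 and 74), 1728 with limma-voom and 2337 with its quality weights. The share of calls higher with SGN-2FF was between 47.3% and 52.8% in the other fits at the same threshold, and 100 of 174 beyond a log2 fold change of 0.58. The deviations of same-numbered libraries from their group means correlated at -0.147, -0.0109 and -0.185, and those of the other pairs at -0.106 to 0.209. Same-numbered libraries were thus no more alike than others. Deviations from a mean of 3 libraries depend on each other, so these values cannot decide whether the cultures were paired. With the replicate block 1388 genes were called (708 and 680), 1373 of them among the 1862, and 9 of the cholesterol and 3 of the hypoxia and glycolysis genes were higher with P-SiaFNEtoc (14 and 6 without it).

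Medians of several lists moved by more than their spread, and the cause was not tested. With a library left out the ranges were -0.062 to -0.029 for the fucose pathway, -0.078 to -0.032 for the sialic acid pathway, -0.090 to -0.066 for N- and O-glycan extension, -0.37 to -0.33 for NRF2 targets, 0.21 to 0.31 for the androgen response, 0.0063 to 0.051 for S phase, -0.18 to -0.15 for cholesterol genes, -0.15 to -0.013 for WNT feedback, 0.061 to 0.13 for immediate early genes, 0.072 to 0.11 for heat shock proteins, -0.056 to 0.12 for basal and -0.066 to 0.19 for stromal markers. The Notch median (-0.03; range -0.054 to 0.014) changed sign without the third SGN-2FF (0.0083) or the first P-SiaFNEtoc library (0.014). With voom quality weights the medians were -0.015 for the fucose pathway, -0.068 for N- and O-glycan extension and 0.29 for the androgen response. With no filter on low counts they were -0.020 for the sialic acid pathway, 0.24 for the androgen response, -0.21 for WNT feedback, 0.17 for immediate early genes, 0.0068 for interferon genes and -0.16 for basal markers. Among genes not called, values changed sign with a library left out for ATF4 (range -0.044 to 0.0050), FUT8 (-0.039 to 0.022, and -0.00052 with the replicate block), CHAC1 (-0.077 to 0.075), PCNA (-0.027 to 0.10) and GMDS (-0.0076 to 0.13). Only RBFOX2 of the genes not called passed the test under an alternative.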
